A study of Drosophila melanogaster with 9 samples.

Results

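The genes described here are *Hr38*, *sr*, *Arc1*, *Arc2*, *kay*, *Jra* and *puc*, 7 of the 17421 genes in the files. They were chosen by name, as *Drosophila* genes known to be induced by neuronal activity or by signalling through the Jun N-terminal kinase (JNK). Earlier results of these data were known when they were chosen. A filter on low counts kept 8160 genes for testing, among them 6 of these 7. The gene that did not pass was *sr*, with 77 counts over the 9 libraries.

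RNA-Seq was carried out on dorsal organs of *Drosophila* larvae of the third instar, the sense organs on the larval head that house the olfactory receptor neurons (ORNs), in 5 *Orco* mutant and 4 wild-type samples of 20 organs each. *Orco* mutant larvae were w1118, homozygous for *Orco-Gal4,UAS-mCD8-GFP* and homozygous for orco1, a null allele whose stock carries w+. Wild-type larvae were w1118 and homozygous for the same *Orco-Gal4,UAS-mCD8-GFP*, so that larvae of both genotypes carried the driver and expressed membrane-bound GFP in their ORNs. The GFP served to find the organs, which were loosened with collagenase and separated from their neighbours by hand. A sample thus contains ORNs, the support cells of the organ and whatever tissue stayed attached, and each sample was isolated independently.

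In many neurons a burst of activity raises calcium, which switches on immediate early genes without the need for new protein. Their products, often transcription factors, then act on later target genes. In flies the best known activity-regulated genes encode the nuclear receptor Hr38, the zinc finger factor Stripe and the Arc proteins. The AP-1 factors Kayak (Fos) and Jra (Jun) also act downstream of JNK, which answers stress, wounding and neuronal activity, and *puc* encodes the phosphatase that AP-1 induces and that shuts JNK off. *Orco* encodes the co-receptor that insect odorant receptors need to signal, so the comparison asks whether the transcripts of these genes differ between organs with and without it.

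The *Orco* gene itself had 0 to 16 counts in the *Orco* mutant libraries and 1025 to 1819 in the wild-type libraries. Total counts per library were 4090474 to 9157645 in *Orco* mutants and 4432839 to 7005182 in wild-type (two-sided exact permutation test, p = 0.302). *Orco* mutant 3 had the fewest counts of all libraries. It also had the fewest genes with a count, 6790 against 8427 to 10935 in the other libraries. Levels are given as CPM, counts per 1000000 after scaling of the libraries by TMM, with ribosomal and mitochondrial RNA included. Ribosomal RNA made up 35.8% to 47.3% of the counts in *Orco* mutant libraries and 33.3% to 53.8% in wild-type libraries. Mitochondrial genes made up 0.603% to 15.4% in *Orco* mutants and 2.49% to 5.41% in wild-type. Neuronal, glial, support cell, epidermal, tracheal and muscle transcripts were present in every library. Summed muscle markers spanned 65.9 to 1228 CPM in *Orco* mutants and 218 to 1735 CPM in wild-type, so libraries of either genotype differed widely in attached tissue. Across all genes, edgeR's quasi-likelihood test called 3 lower and 0 higher in *Orco* mutants, which is 0.0368% of those tested. They were *Orco*, *CG14455* and *CG34337*, the last pair named after their values were seen.

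None of the 6 tested activity-regulated genes was called different between the genotypes by that test. None reached an unadjusted p of 0.05 either, which 4.96% of all tested genes did. DESeq2, limma-voom and limma-voom with library quality weights also called 0 of them, against 1.24%, 0.147% and 1.12% of all genes they tested. For none of the 7 were the *Orco* mutant and wild-type libraries separated without overlap, as they were for 3.87% of the tested genes. At shares this low, none among 6 or 7 genes is what most sets of that size would give. On simulated counts the edgeR test recovered 0% of genes raised 2-fold and 0.5% of those raised 4-fold. Those genes were drawn at random from all tested genes, so the rates are not specific to the level and spread of these 6. The absence of calls therefore does not show that the levels were equal. The levels themselves spanned a wide range, with *Arc1* among the most abundant transcripts of the organ and *Hr38* and *sr* the least abundant of the 7. In a bulk sample, fewer cells of a type and less RNA per cell cannot be told apart.

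**Figure D1:**
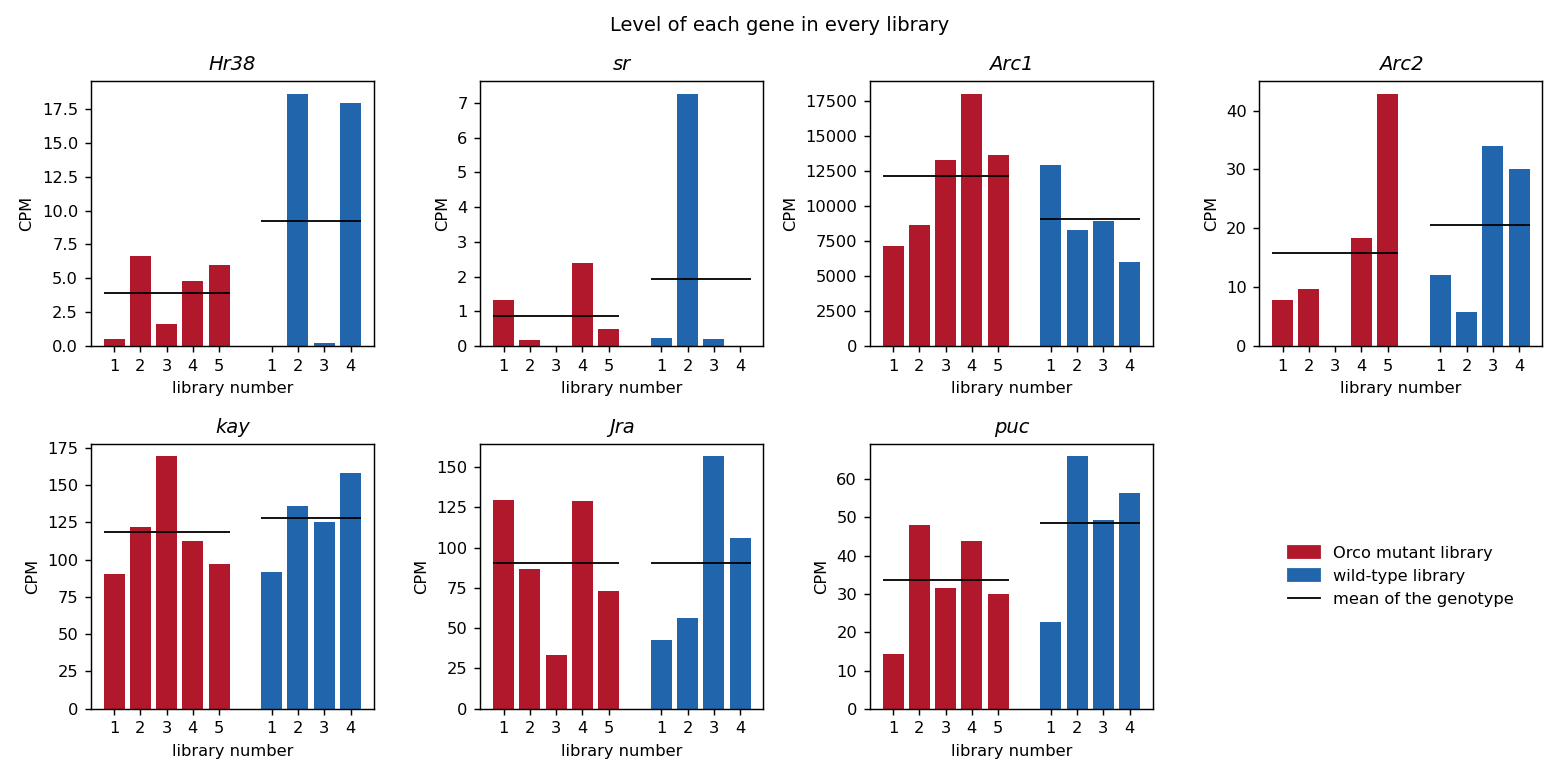
Level of each of the 7 genes in CPM (vertical axes, 1 panel per gene, scales differ) in *Orco* mutant libraries 1 to 5 (red, left) and wild-type libraries 1 to 4 (blue, right), with the mean of each genotype as a line. *Arc1* reached 18026 CPM in *Orco* mutant 4, whereas *sr* did not pass 2.40 CPM in *Orco* mutant libraries and stood at 7.27 CPM in wild-type 2.

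*Hr38* encodes the fly member of the NR4A family of orphan nuclear receptors and is used in insect brains as a marker of recently active neurons. It lies on chromosome 2L at positions 20683462 to 20714588 of Release 6, on the minus strand. It had 0.49, 6.64, 1.65, 4.79 and 5.95 CPM in *Orco* mutant libraries 1 to 5, from 153 counts in all. In wild-type libraries 1 to 4 it had 0.00, 18.62, 0.21 and 17.93 CPM, from 244 counts in all.

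The wild-type libraries thus split into a pair with the highest *Hr38* levels of the series and a pair with the lowest, and the *Orco* mutant libraries lay between them. Wild-type 1 had no count, where 3 counts would correspond to 0.670 CPM, and wild-type 3 had 1 count. *Hr38* averaged 3.91 ± 2.70 CPM in *Orco* mutants and 9.19 ± 10.5 CPM in wild-type (SD, n = 5 and 4). The log2 fold change of *Hr38* was -1.23, with a standard error of 1.49, a 95% interval of -4.46 to 1.99 and an adjusted p of 0.997 by edgeR's quasi-likelihood test. Ratios from 0.0455 to 3.97 lay within that interval, and the sign of the fold change turned under limma-voom, where it was 0.51.

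The files also hold estimates per transcript. For *Hr38* the 2 transcripts differ only in that Hr38-RB has 660 bases of its own. Every *Hr38* count was assigned to Hr38-RB in *Orco* mutant 2, wild-type 2 and wild-type 4, the libraries with the most *Hr38* counts, and to Hr38-RD in *Orco* mutants 1, 3 and 5 and wild-type 3. In *Orco* mutant 4, 29.5% went to Hr38-RB. With 0 to 138 *Hr38* counts in a library, and no estimate of the assignment error in the files, no difference in transcript use between the genotypes could be read from these assignments. An exon of *CG2617* on the opposite strand overlaps *Hr38* over 168 bases, and because the libraries do not mark the strand, reads there cannot be told apart.

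*sr* encodes Stripe, the fly EGR-type zinc finger factor, which is switched on by activity in neurons and is also the master regulator of tendon cells, the epidermal cells to which muscles attach. The gene lies on chromosome 3R at 18090803 to 18135583. It had 1.34, 0.16, 0.00, 2.40 and 0.50 CPM in *Orco* mutant libraries 1 to 5, from 34 counts in all. In wild-type libraries 1 to 4 it had 0.22, 7.27, 0.21 and 0.00 CPM, and 41 of the 43 wild-type counts came from wild-type 2.

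Outside wild-type 2 the gene had between 0 and 19 counts in a library, and a count of 0 allows up to 0.827 CPM in *Orco* mutant 3 and 0.390 CPM in wild-type 4. It was left out of the reported edgeR test. A two-sided exact permutation test on log2(CPM + 1) gave a difference of -0.15 in means (*Orco* mutant minus wild-type, p = 0.825). Without wild-type 2 the difference was 0.57 (exact permutation test, p = 0.321). With 5 against 4 libraries the smallest p this test can give is 0.0159.

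Wild-type 2 was also the library with the most muscle RNA, at 1735 CPM over 6 markers, with *Act57B*, a muscle actin, at 714 CPM and *Mlc2*, a myosin light chain, at 688 CPM. *Orco* mutants 3 and 5 had 1214 and 1228 CPM over the same markers, and *sr* stood at 0.00 and 0.50 CPM there. The summed level of the 5 tendon cell markers measured was 147 to 290 CPM in *Orco* mutant libraries, 205 CPM in wild-type 2 and 87.8 to 160 CPM in the other wild-type libraries. Most of the 205 CPM came from *shot*, at 156 CPM, and *how*, at 47.7 CPM, both the highest among wild-type libraries and both genes that other cells also express. *Lrt* had 1.24 CPM in wild-type 2, *slow* had no count there, and *Tsp* had none in any wild-type library and in 3 of the 5 *Orco* mutant libraries. Whether attached tissue plays a part in the *sr* level of that library was not tested. All 41 counts of wild-type 2 were assigned to sr-RE, the transcript with an extended 3′ end that has 1834 bases in no other *sr* transcript. The transcripts from the upstream start, sr-RA and sr-RD, had 0 counts in every library.

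*Arc1* and *Arc2* encode relatives of the mammalian synaptic protein Arc and stem from the Gag gene of a retrotransposon. Arc1 forms capsids that carry its own mRNA across the neuromuscular junction, and the gene also acts in metabolism and in the response to starvation. The genes are neighbours on chromosome 2R, with *Arc1* at 14357927 to 14360297 on the minus strand and *Arc2* at 14361924 to 14362825 on the plus strand, and each has 1 transcript.

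*Arc1* had 7111, 8660, 13301, 18026 and 13626 CPM in *Orco* mutant libraries 1 to 5, from 410079 counts in all. In wild-type libraries 1 to 4 it had 12921, 8318, 8956 and 6020 CPM, from 193478 counts in all. The highest 3 libraries were *Orco* mutants and the lowest was wild-type, but wild-type 1 stood above *Orco* mutants 1 and 2, so that the genotypes overlapped.

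*Arc1* averaged 12145 ± 4347 CPM in *Orco* mutants and 9054 ± 2870 CPM in wild-type (SD, n = 5 and 4). The ratio was 1.34, with a 95% interval of 0.791 to 2.28 (log2 fold change of 0.42 with a standard error of 0.35, edgeR adjusted p = 0.997). The difference was thus within the spread between libraries. Its sign held under every alternative run, with log2 fold changes of 0.24 to 0.65.

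By mean CPM over all 9 libraries *Arc1* came at place 2 among nuclear genes outside ribosomal RNA. It stood behind *Obp28a*, an odorant-binding protein gene with 52414 CPM in *Orco* mutants and 37023 CPM in wild-type. In the wild-type mean *CG14456*, at 2816 CPM in *Orco* mutants and 13699.6 CPM in wild-type, also stood above it. Its rank by CPM was 3, 2, 2, 2 and 2 in *Orco* mutant libraries 1 to 5 and 2, 5, 3 and 5 in wild-type libraries 1 to 4. *Arc1* alone took 0.749% to 1.64% of all counts in *Orco* mutant libraries and 0.661% to 1.07% in wild-type libraries. Of the counts outside ribosomal RNA the shares were 1.31% to 2.77% in *Orco* mutants and 1.10% to 2.30% in wild-type.

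*Arc2* was measured at a far lower level in the same libraries. It had 7.80, 9.68, 0.00, 18.4 and 42.9 CPM in *Orco* mutant libraries 1 to 5 and 12.1, 5.85, 34.1 and 30.0 CPM in wild-type libraries 1 to 4. *Orco* mutants held both the library with no count and the library with the highest level, and the wild-type values lay between these.

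*Arc2* averaged 15.8 ± 16.5 CPM in *Orco* mutants and 20.5 ± 13.7 CPM in wild-type (SD, n = 5 and 4), with a log2 fold change of -0.38 (95% interval -2.79 to 2.03, edgeR adjusted p = 0.997). Its size moved with single libraries, to -1.19 without *Orco* mutant 5, -0.06 without *Orco* mutant 3 and -0.03 without wild-type 3, and it was -1.26 with limma-voom. In *Orco* mutant 3, where *Arc2* had no count and 3 counts would be 0.827 CPM, *Arc1* had 48267 counts. In the other libraries the CPM ratio of *Arc1* to *Arc2* was 318 to 979 in *Orco* mutants and 201 to 1421 in wild-type. The Spearman correlation of the 2 neighbours was 0.22 over the 9 libraries.

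*kay* encodes Kayak, the fly Fos protein, and *Jra* encodes its partner Jun, with which it forms the AP-1 dimer. *kay* lies on chromosome 3R at 29765995 to 29794113 and *Jra* on chromosome 2R at 10096480 to 10098556, both on the plus strand. *kay* had 90.7, 122, 169, 113 and 97.1 CPM in *Orco* mutant libraries 1 to 5. In wild-type libraries 1 to 4 it had 92.0, 136, 125 and 158 CPM.

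The values of the 2 genotypes lay over each other, and the highest library exceeded the lowest by only 1.87 times, the narrowest range among the 7 genes. *kay* averaged 118 ± 31.0 CPM in *Orco* mutants and 128 ± 27.7 CPM in wild-type (SD, n = 5 and 4). The ratio was 0.925, with a 95% interval of 0.584 to 1.47 (edgeR adjusted p = 0.997). It was the 1 gene of the 6 tested whose interval lay within a 2-fold change in either direction, which was so for 5.4% of all tested genes. Over the 9 libraries its coefficient of variation was 23.0%, against a median of 37.9% for the 200 genes nearest to it in level.

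*Jra* had 130, 86.7, 33.1, 129 and 72.9 CPM in *Orco* mutant libraries 1 to 5 and 42.9, 56.0, 157 and 106 CPM in wild-type libraries 1 to 4. Each genotype held libraries near the top and near the bottom of the range, with *Orco* mutant 3 lowest and wild-type 3 highest. *Jra* averaged 90.2 ± 40.7 CPM in *Orco* mutants and 90.4 ± 51.8 CPM in wild-type (SD, n = 5 and 4).

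For *Jra* the log2 fold change was -0.0013, with a 95% interval of -1.04 to 1.04 (edgeR adjusted p = 0.999), so that a difference of up to about 2-fold in either direction remained within the interval. The coefficient of variation over the 9 libraries was 47.5%, against a median of 40.8% for the 200 genes nearest in level. Over the 9 libraries *Jra* had Spearman correlations of -0.78 with the summed neuron markers, -0.67 with those of epidermis and -0.62 with those of support cells. The neuron sum was 242 to 784 CPM in *Orco* mutants and 236 to 660 CPM in wild-type, and its part in the spread of *Jra* was not tested. A stretch of 39 exonic bases is shared with *RpLP0-like* on the opposite strand. Neither Jra-RA nor Jra-RC has a base of its own, and they received identical estimates.

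The 2 AP-1 genes did not share an order across libraries. The CPM ratio of *kay* to *Jra* was 0.699, 1.41, 5.12, 0.875 and 1.33 in *Orco* mutant libraries 1 to 5 and 2.15, 2.43, 0.799 and 1.49 in wild-type libraries 1 to 4. *Orco* mutant 3 held the highest *kay* level of the series together with the lowest *Jra* level. It was also the library with the fewest counts and the fewest genes detected, and the part of this was not tested. The Spearman correlation of *kay* with *Jra* was -0.27 over the 9 libraries.

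**Figure D2:**
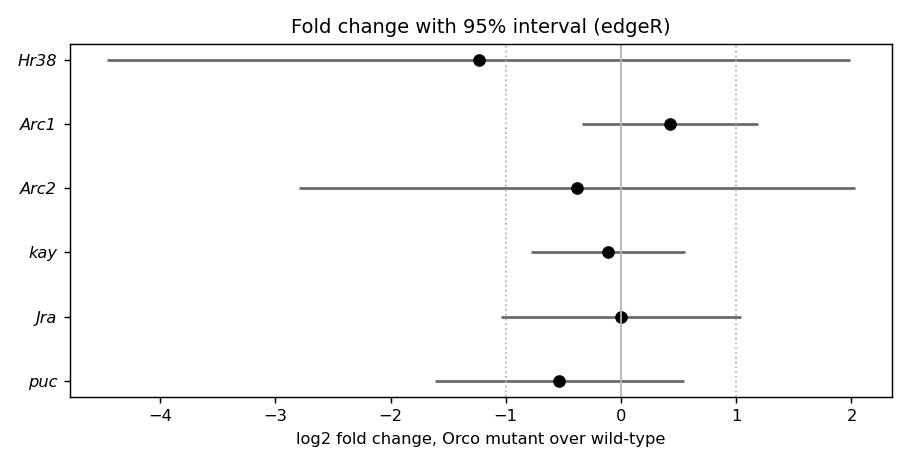
Log2 fold change of the 6 tested genes, *Orco* mutant over wild-type (horizontal axis), as points with the 95% interval of edgeR's quasi-likelihood fit as bars and dotted lines at a 2-fold change. Every interval holds 0, that of *kay* is the narrowest at -0.78 to 0.55, and that of *Hr38* is the widest at -4.46 to 1.99.

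The transcripts of *kay* gave the lowest unadjusted p of the 7 genes. *kay* is transcribed from several starts, and its longest transcript, kay-RF, has a start of its own at 29788936 and 1919 bases that no other *kay* transcript holds. kay-RF had 23.9, 21.7, 30.7, 23.6 and 33.5 CPM in *Orco* mutant libraries 1 to 5. In wild-type libraries 1 to 4 it had 62.6, 105.8, 29.1 and 65.6 CPM.

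Of the 4 wild-type libraries, 3 stood above every *Orco* mutant library, whereas wild-type 3 lay among them. kay-RF averaged 26.7 ± 5.11 CPM in *Orco* mutants and 65.8 ± 31.4 CPM in wild-type (SD, n = 5 and 4). For kay-RF the log2 fold change was -1.30, with a 95% interval of -2.34 to -0.27. The unadjusted p from edgeR's quasi-likelihood test was 0.0177, but the p adjusted over all 13161 transcripts tested was 0.9998.

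Among the 19 transcripts of the 7 genes, 10 were tested, 0 were called and only kay-RF had an unadjusted p under 0.05. Of all transcripts tested, 0.0152% were called and 3.05% had an unadjusted p under 0.05. When each library was left out in turn, the unadjusted p of kay-RF stayed under 0.05 in 8 of 9 fits and was 0.0858 without wild-type 2, where its log2 fold change was -0.99. The adjusted p of these fits was 0.838 to 0.9999.

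As a share of the *kay* estimate, kay-RF made up 25.2%, 16.2%, 19.8%, 19.7% and 34.8% in *Orco* mutant libraries 1 to 5 and 66.8%, 80.2%, 23.7% and 40.3% in wild-type libraries 1 to 4. Its counterpart in most libraries was kay-RB, which starts at 29782609 and has 539 bases of its own. kay-RB made up 68.1%, 59.9%, 2.70%, 64.0% and 65.2% in *Orco* mutants and 18.0%, 16.3%, 69.3% and 47.7% in wild-type. In *Orco* mutant 3 a further transcript, kay-RD, held 55.9%, against 0% to 13.1% in the other *Orco* mutant libraries and 3.43% to 5.56% in wild-type libraries. The log2 fold change of kay-RB was 0.20 and that of kay-RD 2.07 (edgeR adjusted p = 0.9998 for each). The files carry no error for the assignment of reads to transcripts, so these tests understate the uncertainty.

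**Figure D3:**
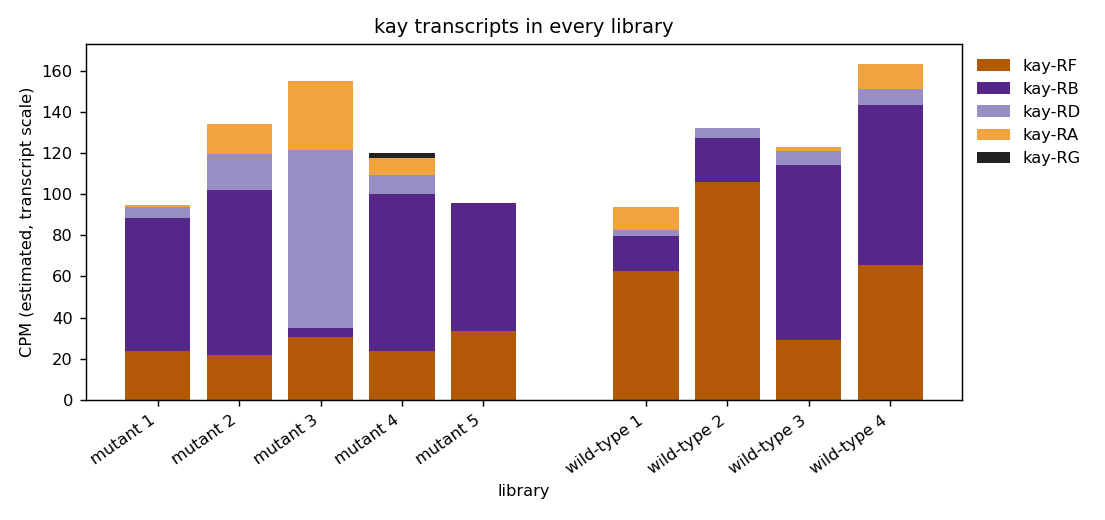
Estimated CPM of the 5 *kay* transcripts (vertical axis, stacked by colour) in each *Orco* mutant library (left) and each wild-type library (right). kay-RF, at the foot of each bar, ranges from 21.7 to 33.5 CPM in *Orco* mutants and from 29.1 to 105.8 CPM in wild-type, while the height of the whole bars overlaps between the genotypes.

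*puc*, named puckered, encodes the dual-specificity phosphatase that removes the activating phosphates from JNK. As a direct target of AP-1 it is used throughout fly biology as a read-out of JNK activity. It lies on chromosome 3R at 8105332 to 8122294. It had 14.4, 48.1, 31.7, 43.8 and 30.0 CPM in *Orco* mutant libraries 1 to 5. In wild-type libraries 1 to 4 it had 22.8, 66.0, 49.3 and 56.5 CPM.

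The highest 3 libraries were wild-type and the lowest was *Orco* mutant 1, but wild-type 1 stood below 4 of the 5 *Orco* mutant libraries. *puc* averaged 33.6 ± 13.2 CPM in *Orco* mutants and 48.6 ± 18.5 CPM in wild-type (SD, n = 5 and 4). The log2 fold change of *puc* was -0.53, with a standard error of 0.50, a 95% interval of -1.61 to 0.55 and an adjusted p of 0.997 by edgeR's quasi-likelihood test. With limma-voom and library quality weights it was 0.054. Nearly all of its estimate was puc-RA, at 96.2% to 100% in *Orco* mutants and 99.0% to 100% in wild-type.

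Across libraries, *puc* and *kay* had the highest Spearman correlation among the 21 pairs of the 7 genes. It was 0.73 over the 9 libraries (Pearson 0.66), and 0.58 after the mean of each genotype was removed. It was 0.62 without *Orco* mutant 1 and 0.98 without *Orco* mutant 3, the library with the highest *kay* level but an intermediate *puc* level. The next pair was *Hr38* and *puc*, with 0.67 (Pearson 0.69), in which the *Hr38* values rest on few counts. After the genotype means were removed, *Hr38* and *puc* had 0.70 and *Arc2* and *Jra* had 0.60, so *kay* and *puc* no longer ranked first. The points share library depth and tissue make-up. Over the same libraries *puc* had a Spearman correlation of -0.78 with the percentage of ribosomal RNA and *kay* one of -0.35, and the part of that in their relation was not tested. These values and those of *Jra* with cell type markers were picked from 140 correlations of the 7 genes with 20 library measures.

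**Figure D4:**
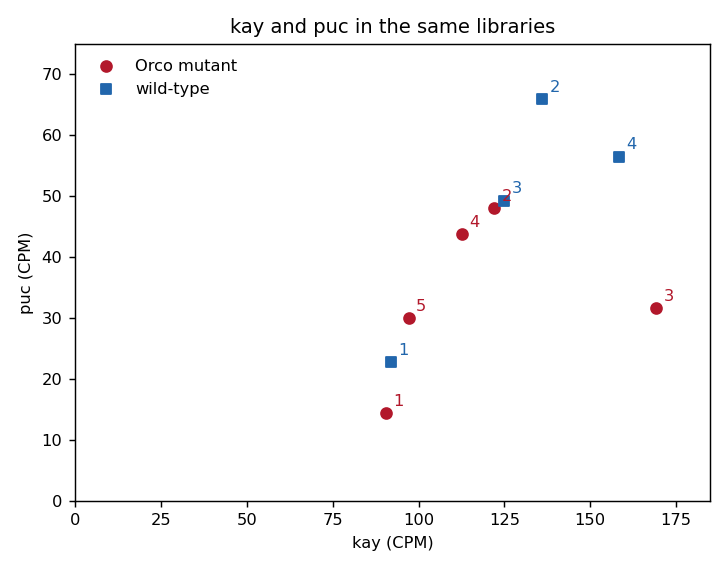
*puc* (vertical axis, CPM) against *kay* (horizontal axis, CPM) in *Orco* mutant libraries (red circles) and wild-type libraries (blue squares), numbered by replicate. The libraries run from *Orco* mutant 1 at 90.7 CPM of *kay* and 14.4 CPM of *puc* to wild-type 2 and wild-type 4 at the upper right, with *Orco* mutant 3 to the right of the others at 169 CPM of *kay* and 31.7 CPM of *puc*.

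To compare levels between genes, CPM were divided by the mean length of each gene's annotated transcripts in kilobases. On this scale *Arc1* averaged 5122 ± 1833 in *Orco* mutants and 3819 ± 1210 in wild-type. *Jra* averaged 58.6 ± 26.5 CPM per kilobase in *Orco* mutants and 58.7 ± 33.7 in wild-type, and *kay* 30.6 ± 8.02 in *Orco* mutants and 33.1 ± 7.15 in wild-type. *Arc1* thus stood far above the AP-1 genes in each genotype.

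On the same scale *Arc2* averaged 17.5 ± 18.3 in *Orco* mutants and 22.7 ± 15.2 in wild-type, and *puc* 12.6 ± 4.96 in *Orco* mutants and 18.3 ± 6.96 in wild-type. *Hr38* averaged 0.530 ± 0.367 in *Orco* mutants and 1.25 ± 1.42 in wild-type, and *sr* 0.166 ± 0.188 in *Orco* mutants and 0.365 ± 0.675 in wild-type (SD, n = 5 and 4 throughout). The order over the 9 libraries was *Arc1*, *Jra*, *kay*, *Arc2*, *puc*, *Hr38* and *sr*. *Arc1* was above *Jra*, and *puc* above *Hr38*, in 9 of 9 libraries. *Jra* was above *kay* in 8 libraries, *kay* above *Arc2* in 7, *Arc2* above *puc* in 6 and *Hr38* above *sr* in 6, so the spread of those neighbours overlapped. Among nuclear genes outside ribosomal RNA ranked per kilobase, *Arc1* came at place 8, *Jra* at 878, *kay* at 1502 and *Hr38* at 8678 of 17051. In *Orco* mutant libraries 1 to 5 the place of *Arc1* per kilobase was 6, 4, 5, 3 and 7. In wild-type libraries 1 to 4 it was 10, 9, 15 and 14, although the *Arc1* levels of the genotypes overlapped. A place also depends on the levels of the other genes, and how many genes separate by place was not counted.

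The genes whose levels ran most like each member over the 9 libraries were found by Spearman correlation among the other 8159 tested genes. For *Hr38* they were *CG7409*, *Rbcn-3A* and *vig*, with 0.94, 0.93 and 0.90. *CG7409* averaged only 1.58 CPM in *Orco* mutants and 3.92 CPM in wild-type. For *Arc1* they were *CG4928*, *CG3558* and *CG43778*, with 0.92, 0.92 and 0.88, and only 2 genes reached 0.9. For *Arc2* they were *Mppe*, *CG31898* and *CR43626*, with 0.98, 0.97 and 0.97, and 33 genes reached 0.9. These *Arc2* neighbours averaged only 1.91 to 3.58 CPM in *Orco* mutants and 3.68 to 5.52 CPM in wild-type, where ranks rest on few counts.

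The genes most like *kay* were *CG12393*, *CG9945* and *CG15553*, with 0.97, 0.95 and 0.93. Those most like *Jra* were *CG9733*, *Nlp* and *upd2*, with 0.97, 0.95 and 0.95. The last of these encodes a ligand of the JAK/STAT pathway. Those most like *puc* were *rempA*, *lab* and *alc*, with 0.95, 0.93 and 0.93. None of the 6 genes had another of the 7 among its closest 3. The Pearson correlations of the neighbours named for the 6 genes ran from 0.61 for *alc* with *puc* to 0.96 for *CG9733* with *Jra*. With 9 libraries and 8159 candidates, correlations of this size are a description only.

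The cascade that leads to *puc* was measured through 13 genes from the ligand to the kinases. Of these, 12 were tested and 0 were called in either direction, with 0 at an unadjusted p under 0.05. Their median log2 fold change was -0.12, against -0.0014 over all tested genes. *egr*, the TNF ligand that activates JNK, averaged 103 ± 43.3 CPM in *Orco* mutants and 86.4 ± 20.3 CPM in wild-type, and *bsk*, the JNK itself, 56.0 ± 19.5 CPM in *Orco* mutants and 64.7 ± 14.5 CPM in wild-type. The upstream kinase genes *Mkk4* and *Tak1* had log2 fold changes of -0.88 and -1.05, and *Cka*, a scaffold, one of 0.67 (edgeR adjusted p = 0.997 for each).

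Of 14 genes known to be induced by JNK or AP-1, 12 were tested and 0 were called, with 0 at an unadjusted p under 0.05. Of the 12, 9 had a positive log2 fold change, against 49.9% of all tested genes, and the median of the 12 was 0.48. The list was chosen with earlier results of these data known, and this share was not tested. *cbt*, an early-response zinc finger gene, averaged 134 ± 89.3 CPM in *Orco* mutants and 65.7 ± 32.7 CPM in wild-type, with a log2 fold change of 1.03. *NLaz*, a lipocalin gene, had one of 1.88 and *rpr*, a cell death gene, one of 2.08 (edgeR adjusted p = 0.997 for each of the 3). For *Gadd45* the value was 0.47 and for *Mmp1*, which encodes a matrix metalloproteinase, 0.64. *Atf3*, *jar* and *Ets21C*, tested as well, averaged lower in *Orco* mutants than in wild-type.

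The route by which calcium reaches the nucleus was measured through 12 genes, all tested. Of these 0 were called and 0 had an unadjusted p under 0.05, with a median log2 fold change of 0.06. *Cam*, which encodes calmodulin, averaged 288 ± 128 CPM in *Orco* mutants and 197 ± 39.8 CPM in wild-type. *CanB2*, a calcineurin subunit gene, averaged 47.5 ± 32.8 CPM in *Orco* mutants and 88.6 ± 27.7 CPM in wild-type, and *Crtc*, which encodes a CREB coactivator, 21.1 ± 12.8 CPM in *Orco* mutants and 9.20 ± 7.10 CPM in wild-type. These differences did not pass the test (edgeR adjusted p = 0.997 for each).

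Relatives of the 7 genes by protein family were described in the same way. Of 15 further bZIP genes, the family of Fos and Jun, 11 were tested, 0 were called and the median log2 fold change was 0.06. The most abundant was *crc*, the fly ATF4 gene, at 655 ± 106 CPM in *Orco* mutants and 627 ± 127 CPM in wild-type. Of 20 further nuclear receptor genes, 14 were tested and 0 were called, with a median of 0.31. Of the 14, *Hnf4* was the 1 with an unadjusted p under 0.05, against 4.96% of all tested genes. It had 22.4 ± 21.3 CPM in *Orco* mutants and 4.36 ± 5.32 CPM in wild-type (log2 fold change 2.36, edgeR adjusted p = 0.992). A value of 0.81 was measured for *Eip75B*, an early gene of the ecdysone response, and one of -0.09 for *EcR*, which encodes the ecdysone receptor.

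Heat shock genes, a separate class of early stress genes, were measured in the same libraries. The several *Hsp70* copies are near-identical, so the estimates of single copies are uncertain. Of 16 such genes, 15 were tested, 0 were called and 3 had an unadjusted p under 0.05, against 4.96% of all tested genes. Of the 15, 14 had a positive log2 fold change, against 49.9% of all tested genes, and the median of the 15 was 0.75. Reads of the *Hsp70* copies are divided among them, so these are not 15 separate observations. The list was chosen with earlier results of these data known. *Hsp68* had 287, 33.5, 102, 98.4 and 67.2 CPM in *Orco* mutant libraries 1 to 5 and 20.5, 19.2, 42.5 and 33.3 CPM in wild-type libraries 1 to 4.

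All but 1 of the *Orco* mutant libraries stood above every wild-type library in *Hsp68*, and the log2 fold change was 2.03 with a standard error of 0.58 (edgeR adjusted p = 0.648). *Hsp26* had a log2 fold change of 1.72 (edgeR adjusted p = 0.796) and *Hsp83* one of 0.88 (edgeR adjusted p = 0.963). The summed level of the 16 genes was 1671 to 10006 CPM in *Orco* mutants and 3017 to 4646 CPM in wild-type, so *Orco* mutants held both the lowest and the highest library. Over the 9 libraries this sum had a Spearman correlation of -0.22 with *kay*, 0.40 with *Jra* and -0.30 with *puc*. The 6 tested activity-regulated genes had a median log2 fold change of -0.25, with 1 positive value, that of *Arc1*.

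**Figure D5:**
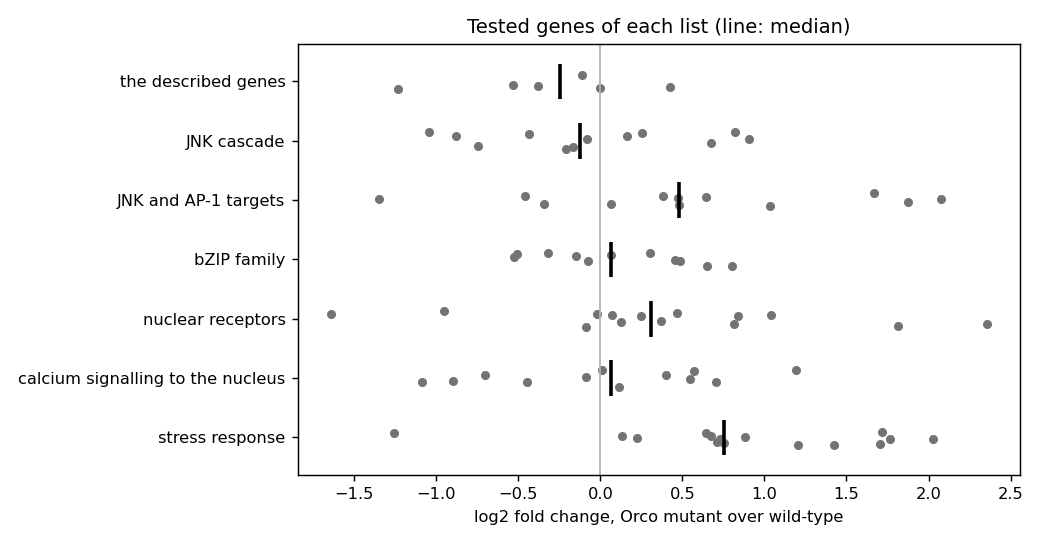
Log2 fold change, *Orco* mutant over wild-type (horizontal axis), of every tested gene of the 7 described genes and of 6 related lists (rows), with the median of each as a line. Medians run from -0.25 for the described genes to 0.75 for the stress response, and no gene shown passed edgeR's adjusted p threshold of 0.05.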

How the data were processed

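RNA was converted to cDNA with Smart-seq2, which carries no molecular identifiers, and does not mark the strand. The submitters' notes name CASAVA 1.8.2, cutadapt 1.9.1 and kallisto 0.43.0. The authors aligned reads to the FlyBase transcriptome and condensed them to genes with tximport, and they deposited estimated counts for each gene and each transcript, without normalization. The authors compared the genotypes with DESeq2. They set aside 1 *Orco* mutant sample because it had few reads, and it was not used here.

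The estimates were rounded to integers. Genes and transcripts were filtered with filterByExpr of edgeR 4.0.16 (R 4.3.3; minimum count 10, minimum total 15), which kept 8160 genes and 13161 transcripts, scaled by TMM and compared with the quasi-likelihood test. A call is a Benjamini-Hochberg adjusted p under 0.05 over all features tested. A gene left out by the filter and library totals were compared by two-sided exact permutation (scipy 1.17.1), the gene on log2(CPM + 1). Intervals are at 95%. Limits from 3 counts cover counting error only. Positions and transcript lengths are from the Ensembl annotation of Release 6, matched by identifier. On simulated counts for 8160 genes with 200 raised, drawn at random, the gene test recovered 0% at 2-fold, 0.5% at 4-fold and 43.5% at 8-fold.

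The described genes and lists were chosen with earlier results of these data known. The text names the 7 genes, the 3 tested genes most correlated with each, in each list the 3 with the smallest p and the 2 with the highest level, and *Orco*, and gives some of these. Genes named for levels in single libraries, *CG14456*, and the kay-RF fits without 1 library, were chosen after values were seen. So were the JNK or AP-1 targets named as lower in *Orco* mutants. Alternatives were RLE size factors, scaling without ribosomal and mitochondrial genes, DESeq2 1.42.0, limma-voom (limma 3.58.1) with and without quality weights, no filter, 10 counts in 5 libraries, the replicate number as a block, pseudocounts of 0.1 and 5 and leaving out each library.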

Additional observations from a re-analysis of the deposited data

Results flagged for a closer look

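*sr* stood at 7.27 CPM in wild-type 2, against 0 to 0.223 CPM in the other wild-type libraries. The gap to the next library exceeded the critical value of Dixon's test for a group of 4. It was the 1 such library found among 22 groups of values examined, and chance alone gives about 1 such library in 20 groups. In *Orco* mutants *sr* was at most 2.40 CPM. The level rests on 41 counts.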

How the results depend on the processing

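Under all 17 alternatives 0 of the tested genes among the 7 were called. The lowest adjusted p among the 6 genes of the reported test was 0.505, for *Hr38* under limma-voom with quality weights. *sr* was tested only with DESeq2 and without the filter, and was not called there. The number of genes called higher in *Orco* mutants, 0 in the reported test, was 47 with DESeq2, 12 with limma-voom and quality weights, 1 without the filter, 1 with the replicate block and 0 to 1 when a library was left out. The number called lower, 3 in the reported test, was 64 with DESeq2, 12 with limma-voom, 79 with quality weights and 1 to 3 when a library was left out. The log2 fold change of *Hr38* turned to 0.51 with limma-voom, 2.39 with quality weights and 0.32 with the replicate block. That of *Jra*, close to 0, was 0.025 with ribosomal and mitochondrial genes left out of scaling, 0.15 with limma-voom, 0.48 with quality weights, 0.014 without the filter, 0.14 with the replicate block and -0.23 to 0.41 when a library was left out. That of *puc* was 0.054 with quality weights, and that of *kay* was -0.28 to 0.0070 when a library was left out. The *sr* difference was 0.11 with a pseudocount of 0.1 and -0.45 to 0.57 when a library was left out. The causes of these changes were not tested. Same-numbered libraries had correlations of -0.0940 to 0.0268 in their deviations from the genotype means, against -0.0622 to 0.0840 for the other pairs. These values cannot tell whether same-numbered libraries were prepared together, and the reported test did not pair them. *Hr38* and *sr* had 0 or 1 count in some libraries, and the simulated test recovered few changes under 8-fold.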
